A study of Mus musculus with 6 samples.

Results

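Among 9218 H3K4me3 domains between 1000 and 2800 bp wide in mature thymic T cells, 427 had low H3K36me3 on both sides (4.63%, exact binomial 95% interval 4.21 to 5.08). The members were chosen from pooled CD4 and CD8 reads on chromosomes 1 to 19 of mouse build mm9. A domain was a run of 200 bp bins whose RPM, the reads scaled to library size, was 4 or more times that of input, with input set to at least 3 reads per bin, gaps of up to 400 bp joined and at least 20 reads in all. A member then had H3K36me3 below 0.7 times input in the 20 kb before it and in the 20 kb after it, sides that differed less than 4-fold in H3K36me3 reads, and at least 30 input reads per side. Of the 9194 domains with enough input reads, 428 had both sides below the limit and 1 of these failed on the difference between its sides. A further 3109 domains had 1 side below the limit and the other at or above it.

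The cells were thymic T cells of C57BL/6 mice, mature CD4+ in 3 libraries and mature CD8+ in 3, with no treatment or genetic change named in the labels. Their chromatin was cut to mononucleosomes with micrococcal nuclease. For each cell type 1 library was made with a polyclonal rabbit antibody to H3K4me3, 1 with such an antibody to H3K36me3 and 1 from input. Each of the 6 groups is thus a single library, p-values are not given, and a difference between CD4 and CD8 is one between libraries. The cell type labels were not tested against marker genes. Intervals cover counting error only. Since the reads carry no molecular identifiers, copies of 1 molecule can be counted more than once. On chromosomes 1 to 19 the H3K4me3 libraries held 10491937 CD4 and 11878642 CD8 reads, the H3K36me3 libraries 6599587 and 6604331, and the inputs 9913123 and 9716101. Distinct positions made up 54.3% of the CD4 and 31.3% of the CD8 H3K4me3 reads, and between 91.1% and 97.6% in the other 4 libraries.

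H3K4me3 is placed on nucleosomes around active and poised promoters, most of all where CpG dinucleotides are dense, by enzymes of the SET1 and MLL families. H3K36me3 is placed by SETD2, which travels with elongating RNA polymerase, so that it covers the bodies of transcribed genes and is low at their starts. A promoter mark without the gene-body mark is known from promoters that are poised or silenced by Polycomb proteins, from very short genes and from some enhancers. H3K27me3, the Polycomb mark, and RNA were not analysed here, and no mm9 gene annotation was used, so the members are given by position without gene names.

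The H3K36me3 level of the members' sides was low but above the level of chromatin far from both marks. Summed over the sides of the 427 members it was 50.7% of input in CD4 cells and 45.4% in CD8 cells, against 247% and 254% for the 8791 other domains of the same width. Chromatin away from both marks was measured in 2 kb windows, none closer than 10 kb to a window where a mark had over 9 reads. There H3K36me3 was at 31.4% of input in CD4 and 32.2% in CD8. Choosing windows by their few mark reads sets this level low by construction. The sides of the members thus lay 1.62 times above this background in CD4 and 1.41 times in CD8. "Without H3K36me3" holds for the rule's limit, not for an absence of reads. These side values chose the members and are a description only.

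**Figure D1:**
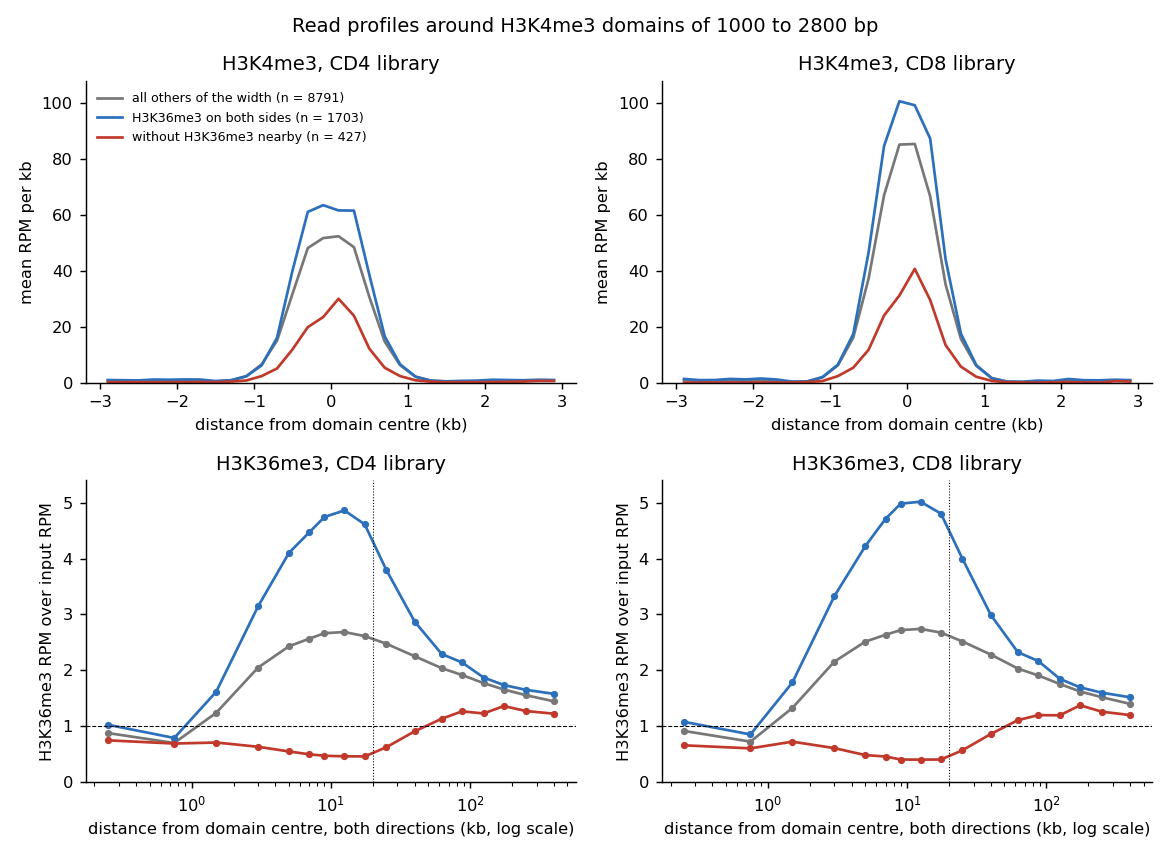
Mean H3K4me3 RPM per kb within 3 kb of domain centres (top) and summed H3K36me3 RPM over input RPM by distance from the centre in both directions on a log axis (bottom), for 427 members (red), 1703 domains with H3K36me3 at 2 times input or more on both sides (blue) and 8791 other domains (grey), in the CD4 (left) and CD8 (right) libraries. The blue domains are part of the grey. The dotted line marks 20 kb, inside which H3K36me3 was used to choose the red and blue groups. The red H3K36me3 line has its low point before 20 kb, rises past it and stays under the other lines in both libraries.

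Beyond the 20 kb that the rule used, H3K36me3 stayed low around most members out to 50 kb. Between 20 and 50 kb from the domain edges the median over members was 0.538 times input in CD4 (order-statistic 95% interval 0.501 to 0.583) and 0.483 in CD8 (0.459 to 0.535), against 2.09 and 2.02 for the other domains. Pooled H3K36me3 in this band was below 0.7 times input at 284 members (66.5%) and at 932 other domains (10.6%). It reached 2 times input or more at 39 members (9.13%), against 51.6% of the other domains. In the band from 50 to 100 kb the median was 0.776 in CD4 and 0.692 in CD8, against 1.78 and 1.70. From 100 to 200 kb it was 1.02 and 1.01, against 1.59 and 1.51, and 158 members (37.0%) still lay below 0.7. The low H3K36me3 of the members therefore reached well past the stretch that selected them in both libraries, and the gap to other domains narrowed with distance.

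The nearest H3K36me3-enriched window was far away by the same measure. These are windows of 10 kb with at least 20 pooled reads and at least 2 times input. Their median distance from a member was 94.2 kb (order-statistic interval 82.6 to 104), against 2.2 kb for the other domains, and the rule itself keeps most such windows out of the first 20 kb. For 23.7% of members the distance was over 200 kb, against 1.59% of other domains. Within 500 kb on each side, a median of 13.9% of 10 kb windows were H3K36me3-enriched around members and 23.8% around other domains.

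In the other domains H3K36me3 fell from 7.11 CD4 reads per kb at the sides to 1.55 inside, and from 7.003 to 1.25 CD8 reads per kb. In the members it went from 1.54 at the sides to 1.22 inside in CD4, and from 1.34 to 0.837 in CD8. The members' input fell too, from 4.56 to 2.39 reads per kb in CD4 and from 4.34 to 1.77 in CD8. Over input, H3K36me3 inside the members was 0.766 in CD4 and 0.696 in CD8, higher than at their sides. This rise is in the ratio, because input fell by more than H3K36me3. The smaller step from sides to inside at members is set by the rule, which chose them for low sides.

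H3K4me3 itself was lower at members than at other domains. A member held a median of 209 CD4 H3K4me3 reads, from 8 to 2109, and 281 CD8 reads, from 10 to 2054. Per length and library size the median level was 14.2 RPM per kb in CD4 (order-statistic 95% interval 12.7 to 17.0) and 18.5 in CD8 (16.1 to 20.9). Other domains had 35.8 in CD4 and 50.9 in CD8, and the 1703 of them with H3K36me3 on both sides had 45.4 and 63.7. In pooled reads per kb the members' median of 381.5 was 0.386 times that of the other domains. Pooled H3K4me3 reads entered the choice of domains, so these levels are given without a test. The order of the 3 sets was the same in the CD4 and CD8 libraries.

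The members spanned a wide range of levels. The middle 50% of members lay between 216 and 693 pooled reads per kb, and the extremes were 53 and 2195. Below 200 reads per kb were 95 members (22.2%) but 5.43% of the other domains, and at 1600 or more were 13 members (3.04%) and 20.5% of the others. Across all domains with even sides the level rose step by step with the H3K36me3 of the higher side. The median was 323 reads per kb where that side was below 0.5 times input and 419 between 0.5 and 0.7, the 2 classes that make up the members. It was then 564 from 0.7 to 1, 761 from 1 to 2, 943 from 2 to 4 and 1252 at 4 times input or more. There was no break at the limit of 0.7, so the members are the low end of a graded series.

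**Figure D2:**
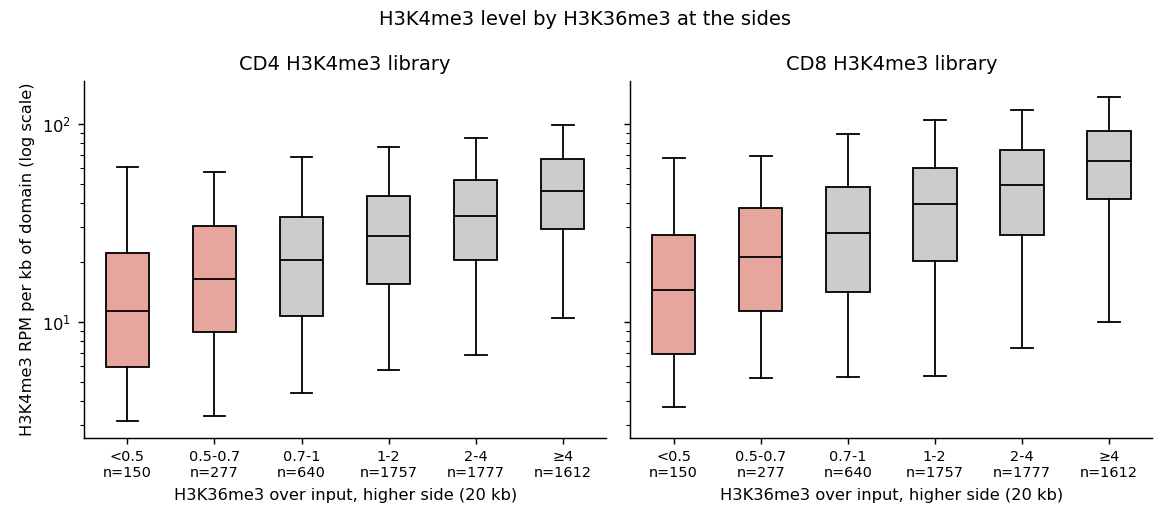
H3K4me3 RPM per kb of domain (log axis) in the CD4 (left) and CD8 (right) library by the H3K36me3 level of the higher side, over domains whose sides differ less than 4-fold. Boxes give the quartiles and the median, whiskers the 5th and 95th percentiles, and the 2 red boxes are the members. Medians rise from 11.3 to 46.0 RPM per kb in CD4 and from 14.5 to 64.7 in CD8.

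Among the members themselves the same relation was weak. Spearman's rho between H3K4me3 reads per kb and H3K36me3 of the higher side was 0.156 over 427 members and 0.309 over the 8791 other domains, as a description over regions of the same libraries. H3K4me3 in the CD4 and CD8 libraries ranked members alike, with a rho of 0.740, against 0.827 for other domains.

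Members were also narrower. At the smallest allowed width of 1000 bp were 182 members (42.6%) and 19.04% of other domains, and the median width was 1200 against 1400 bp. Among domains of 1000 bp the medians were 321 reads per kb for members and 878.5 for others, and at 2000 bp they were 391 and 965. Within the domain, the fuller side of the domain centre held a median of 66.7% of a member's CD4 reads and 66.5% of its CD8 reads, against 64.2% and 65.5% in other domains, and the fullest 200 bp held 35.4% and 37.5%, against 33.1% and 36.9%. Over 80% of reads lay on 1 side of the centre in 16.4% of members and 12.1% of other domains in CD4, and in 20.6% and 18.1% in CD8. Reads in the 1 kb outside the domain had a median of 4.38% in CD4 and 1.73% in CD8 for members, against 2.02% and 0.401% for other domains.

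The 8 members with the most H3K4me3 per kb show that low H3K36me3 did not require low H3K4me3. The highest, chr18:34568601-34569600, held 950 CD4 and 1245 CD8 H3K4me3 reads over 3 and 5 input reads, while its sides together held 61 CD4 and 53 CD8 H3K36me3 reads against 194 and 189 input reads. At chr7:36019201-36020600 there were 1168 CD4 and 1881 CD8 H3K4me3 reads, and at chr14:118488001-118489600 there were 1326 and 2054. Ratios between the cell types were centred on the median over all 9218 domains, and as an alternative scaled to total library reads. With median centring these 3 had CD4 to CD8 ratios between 1.02 and 1.26, and with total-read scaling between 0.703 and 0.864.

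The domain at chr3:19527801-19529600 held 2109 CD4 and 1682 CD8 reads. With median centring it was the only one of the 8 with a call between the libraries, 2.06-fold higher in CD4 (exact 95% interval 1.93 to 2.20). With total-read scaling its ratio was 1.42 (1.33 to 1.51) and the call was lost. Its nearest H3K36me3-enriched window lay 337.8 kb away. The remaining 4 had folds toward CD8 after scaling. At chr15:74539201-74540200 there were 603 CD4 and 1425 CD8 reads, a ratio of 1.44 toward CD8 (1.31 to 1.58), which total-read scaling raised to 2.09 (1.90 to 2.30) and a call. At chr13:63065801-63066800 the counts were 647 and 1264, at chr11:83253601-83254600 they were 668 and 1211, and at chr15:54943601-54944600 they were 633 and 1215. All 8 were far above input in both libraries, and their sides lay between 0.385 and 0.610 times input.

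The pooled members were next looked for in each cell type alone. A domain called from CD4 libraries alone overlapped 384 members (89.9%), and a domain from CD8 libraries alone overlapped 403 (94.4%). The background over all 9218 domains was 97.9% for CD4 and 98.3% for CD8, so members were found less often. In both cell types were 370 members (86.7%), against 97.0% of other domains. In CD4 alone were 14 (3.28%, against 1.32%), in CD8 alone 33 (7.73%, against 1.49%) and in neither 10 (2.34%, against 0.239%). Below 200 pooled reads per kb 55 of 95 members had a CD4 domain and 73 a CD8 domain, against 350 and 360 of 477 other domains. From 200 to 400 reads per kb 130 of 132 members had each, while between 400 and 800 it was 111 and 112 of 112, and all 88 members above that had both.

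With the whole rule applied to 1 cell type, CD4 libraries gave 223 members of 7946 domains (2.81%) and CD8 libraries 293 of 7361 (3.98%). The sets shared 101 domains, which is 45.3% of the CD4 set and 34.5% of the CD8 set. The same overlap over all domains of this width in each cell type was not computed. This sharing is therefore not read as particular to members. Of the CD4 set 181 overlapped a pooled member and of the CD8 set 192. Much of the difference lay in the domains, which were called under the stricter floor described above. Of the 427 pooled members 43 had no CD4 domain and 143 had overlapping CD4 domains that summed to under 1000 bp, and for CD8 the counts were 24 and 171. In CD4 alone the higher side reached 0.7 times input or more at 99 pooled members (23.2%) and in CD8 alone at 57 (13.3%). It reached the input level at 3 members in CD4 and 1 in CD8, with highest values of 1.25 and 1.02. At none did it reach 2 times input in either library. The pooled limit of 0.7 bounds what 1 library alone can reach, so these values are a description only.

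The H3K36me3 of the sides was also compared between the cell types, with the ratio centred on the median over all 9218 domains. A call needed a ratio of at least 2 and an exact interval, with 0.1% outside it, that excluded 1. It was higher in CD4 at 7 members (1.64%, 0.662 to 3.35) over a background of 0.51%. It was higher in CD8 at 0 of 427 members over a background of 0.228%. There 3 counts, the limit taken for a count of 0, are 0.703% (exact upper bound 0.860%). The same side reads chose the members, so these shares are a description only. A member's sides held medians of 57 and 55 pooled H3K36me3 reads, against 185 and 186 at other domains. The log2 ratios of members also spread more, with a standard deviation of 0.399 against 0.349. The largest difference was at chr4:140369801-140371000, with 104 CD4 and 32 CD8 H3K36me3 reads over 150 and 157 input reads, a ratio of 3.12 (2.08 to 4.80). Its H3K4me3, with 303 CD4 and 391 CD8 reads, had a CD4 to CD8 ratio of 1.28 (1.09 to 1.49) with median centring and 0.877 (0.753 to 1.02) with total-read scaling, so its direction depends on the scaling. The other 6 ratios lay between 2.04 and 2.21. Only chr2:25916801-25918000 of the 7 also had an H3K4me3 call in the same direction. Over all members the median log2 ratio of side H3K36me3 was 0.14 toward CD4, and Spearman's rho between the log2 ratios of the 2 marks was 0.0275 over the 427 members.

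H3K4me3 differed between the CD4 and CD8 libraries at 100 members. Ratios were centred and called as for H3K36me3. Higher in CD4 were 77 members (18.0%, exact 95% interval 14.5 to 22.0) over a background of 9.83%, and higher in CD8 were 23 (5.39%, 3.44 to 7.97) over a background of 2.79%. The CD4 to CD8 split depends on the scaling. Scaled to total reads, which lowers every log2 ratio by 0.54, 45 members were higher in CD4 and 84 higher in CD8, over backgrounds of 4.99% and 17.7%. With 1 read kept per position the counts were 42 and 27, over backgrounds of 5% and 2.40%. Centred within classes of reads per kb, an alternative chosen after seeing the data, 72 members were higher in CD4 and 42 higher in CD8, over backgrounds of 9.13% and 3.60%. The members' CD4 share was above the background in all 4 settings. Their CD8 share with total-read scaling, 19.7%, lay near its background. These backgrounds are not matched for level. Below 200 reads per kb lay 22.2% of members and 5.43% of other domains, and from 200 to 400 lay 30.9% and 9.54%. Other domains of these classes were also called more often than those of higher level. The shares over background thus do not compare domains of like level. The libraries also stood apart in H3K4me3 away from both marks, at 19.1% of input in CD4 and 1.21% in CD8. With that background subtracted the counts were 77 and 23, as before. The amount subtracted was 0.202 reads per CD4 input read and 0.0148 per CD8 input read inside the domain. A member held a median of 5 pooled input reads, so the subtraction was small and could hardly change the counts. The median log2 ratio of members was 0.08 with an interval from -0.04 to 0.17, which includes 0.

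The share called moved with the level of H3K4me3. In the class from 200 to 400 reads per kb 25.8% of 132 members were higher in CD4 (18.5 to 34.1) and 23.7% of other domains (20.9 to 26.7). Below 200 reads per kb the order was turned round, with 16.8% of 95 members (9.94 to 25.9) against 38.4% of other domains (34.0 to 42.9). From 400 to 800 it was 15.2% (9.10 to 23.2) against 11.8%, and from 800 to 1600 it was 12% of 75 members (5.64 to 21.6) against 4.60% (3.94 to 5.33). The intervals of members and others were apart in the lowest and in the 800 to 1600 class, in opposite directions. For CD8 the members' interval held the other domains' share in each of these 4 classes. From 800 to 1600 it was 0 of 75 members, for which 3 counts are 4% (exact upper bound 4.80%), against 0.931%.

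**Figure D3:**
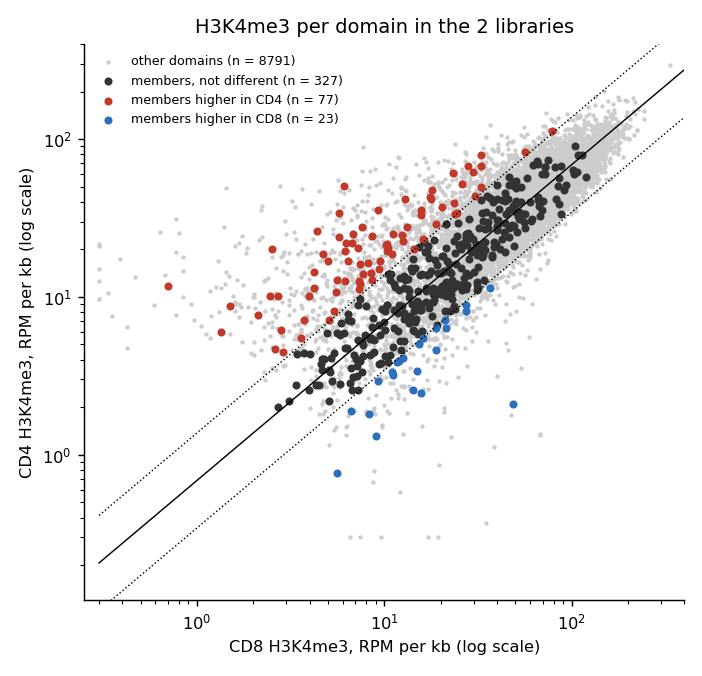
H3K4me3 RPM per kb in the CD4 library against the CD8 library on log axes, 1 point per domain, with 8791 other domains in grey, 327 members without a call in black, 77 members higher in CD4 in red and 23 higher in CD8 in blue. The solid line is the median ratio over all domains and the dotted lines are 2-fold from it, and points below 0.3 RPM per kb are drawn at that value. The members lie along the solid line in the lower part of the cloud, with red points spread above and blue points below.

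The 5 members chosen as higher in CD4 by the bound of their interval held between 10 and 72 CD8 reads, and the ratio given for each is CD4 over CD8 after centring, with its exact 95% interval. Chr2:25916801-25918000 held 147 CD4 reads and 10 CD8 reads (ratio 24.2, interval 12.8 to 51.5), and no CD8 domain overlapped it. Chr1:174480201-174481200 held 529 and 72 reads (ratio 12.1, interval 9.44 to 15.7), with another H3K4me3 domain 1 kb away. Chr3:146344801-146345800 held 210 and 30 reads (ratio 11.5, interval 7.83 to 17.5). These 3 domains had between 3 and 9 pooled input reads.

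Chr19:35201001-35202000 held 356 CD4 and 68 CD8 reads (ratio 8.61, interval 6.63 to 11.3), and lay 203.6 kb from any other H3K4me3 domain. Chr11:66798201-66799200 held 276 and 52 reads (ratio 8.73, interval 6.47 to 11.98). Side H3K36me3 of these 5 was between 0.268 and 0.613 times input. Between the cell types it was called different only at the domain on chromosome 2, with 69 CD4 and 30 CD8 reads. With 1 read kept per position the H3K4me3 log2 ratios of these 5, in the order given, were 3.79, 2.34, 2.42, 2.53 and 1.99. With all reads they were 4.53, 3.59, 3.51, 3.10 and 3.12. Apart from the domain on chromosome 2, the ratios with 1 read per position lie below the printed intervals, which do not allow for repeated positions.

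The 5 members chosen likewise as higher in CD8, with ratios given as CD8 over CD4, overlapped no domain called in CD4 alone. Chr4:129693601-129695000 held 808 CD8 reads and 31 CD4 reads (ratio 15.8, interval 11.1 to 23.5), and stood apart in size from the others. Chr18:36355801-36357400 held 172 CD8 and 22 CD4 reads (ratio 4.75, interval 3.04 to 7.78). Chr2:26406801-26407800 held 187 and 26 reads (ratio 4.37, interval 2.89 to 6.87).

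Chr11:97490401-97491400 held 168 CD8 and 27 CD4 reads (ratio 3.78, interval 2.51 to 5.91). Chr14:48740201-48741200 held 66 and 8 reads (ratio 5.01, interval 2.40 to 12.1). Apart from the domain on chromosome 4 these are weak domains with at most 187 CD8 reads. With 1 read kept per position the log2 CD4 to CD8 ratios, in the order given, were -3.26, -2.44, -1.88, -1.81 and -2.39. With all reads they were -3.96, -2.22, -2.10, -1.90 and -2.25. Only the domain on chromosome 4 thereby fell outside its printed interval.

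The CD4 to CD8 ratio of H3K4me3 moved with the number of input reads inside the domain. Members higher in CD4 had a median of 6 pooled input reads per kb (quartiles 4 to 8.33), members higher in CD8 had 1 (0.729 to 2.92) and members without a call 3.33 (2 to 5). Of 88 members with under 2 input reads per kb 2.27% were higher in CD4 and 15.9% higher in CD8. Of 75 members with 7 or more, 45.3% were higher in CD4 (33.8 to 57.3) and 0 higher in CD8, with the same limit of 4%. Other domains showed the same order, from 2.03% to 21.9% higher in CD4 and from 6.59% to 1.72% higher in CD8.

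Spearman's rho between input reads per kb and the log2 ratio was 0.484 over 427 members and 0.351 over other domains, a description over regions that share the same 4 libraries. It held with 1 read kept per position, at 0.553 for members, and within classes of H3K4me3 level, at 0.619 below 200 reads per kb, 0.564 from 200 to 400, 0.415 from 400 to 800 and 0.210 from 800 to 1600. Other domains had 0.414 with 1 read per position, and 0.438, 0.503, 0.374 and 0.322 in the same classes. From 800 to 1600 the value was thus higher for other domains than for members. For members the CD4 input alone gave 0.368 and the CD8 input alone 0.389. Counts of input are small, with a median of 5 reads per member. The part of input coverage in the calls between CD4 and CD8 was not tested.

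**Figure D4:**
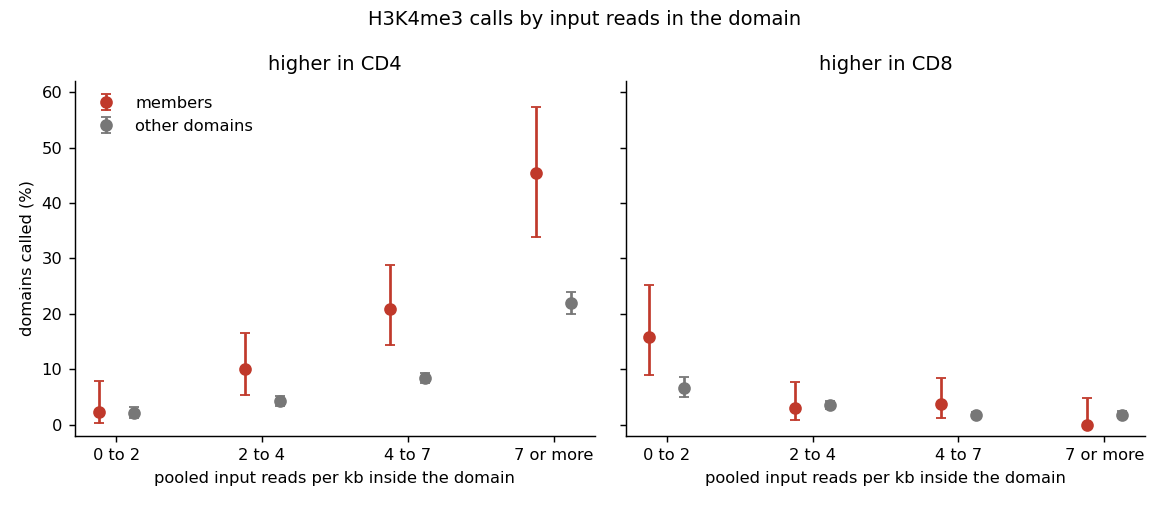
Percent of domains called higher in CD4 (left) and higher in CD8 (right) by pooled input reads per kb inside the domain, for members (red) and other domains (grey), with exact binomial 95% intervals as bars. CD4 calls rise from 2.27% to 45.3% of members with more input reads, and CD8 calls fall from 15.9% to 0.

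Members stood farther from other H3K4me3 domains. The rule did not measure this spacing, but the spacing moved with the rule's H3K36me3 limit. With the limit at 0.5 times input, 14.7% of members had another domain within 20 kb, and with the limit at 1 it was 31.8%. The spacing is therefore not independent of how the members were chosen. The nearest other domain of any width lay at a median of 51.4 kb (order-statistic 95% interval 45.2 to 58.4) from a member, against 19 kb (18.2 to 19.6) from other domains and 13.8 kb from domains with H3K36me3 on both sides. Another domain lay within 20 kb of 103 members (24.1%, 20.1 to 28.5) and of 51.8% of other domains. No other domain lay within 100 kb of 105 members (24.6%), against 7.61% of other domains. Within 500 kb on each side there was a median of 10 other domains around members and 15 around others. Members with a neighbour within 20 kb were higher in CD4 in 28.2% of cases and those without in 14.8%, while for other domains the shares were 11.7% and 7.03%. Higher in CD8 were 1.94% of members with such a neighbour and 6.48% of those without, against 3.10% and 2.20% of other domains. A crowded stretch of chromosome 13 gave 7 of the CD4 calls in members with a neighbour.

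**Figure D5:**
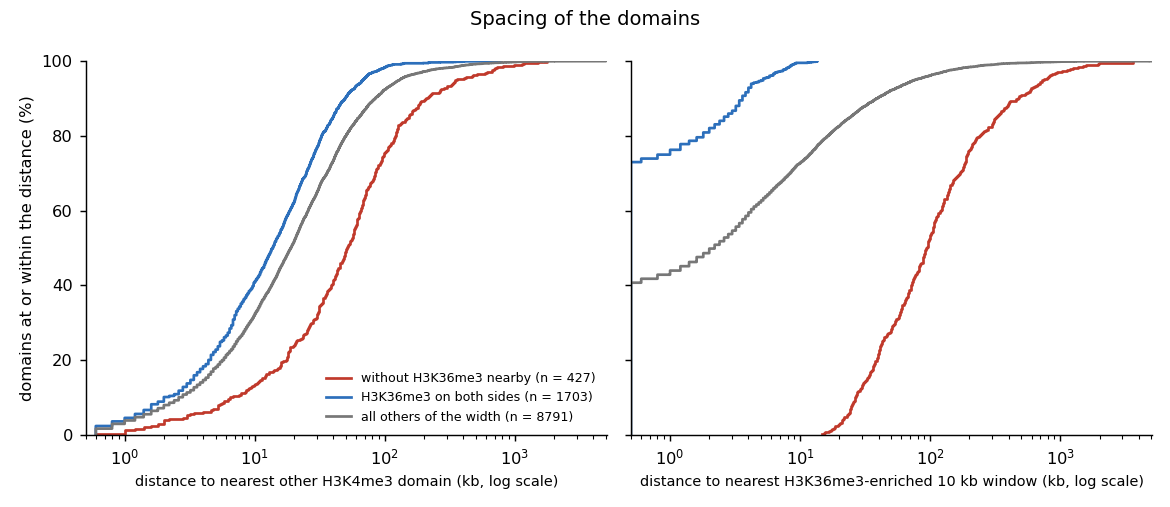
Cumulative percent of domains by distance to the nearest other H3K4me3 domain (left) and to the nearest H3K36me3-enriched 10 kb window (right), with distance on a log axis and distances below 0.5 kb drawn at 0.5 kb. Members (red) lie to the right of other domains (grey) and of domains with H3K36me3 on both sides (blue) in both panels, with medians of 51.4, 19 and 13.8 kb on the left. The blue domains are part of the grey.

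The 5 most isolated members lay over 1 Mb from any other H3K4me3 domain. The farthest, chr6:61130001-61131200, had its nearest neighbour 1753 kb away and held 51 CD4 and 68 CD8 reads over 3 and 0 input reads. It passed only on pooled reads, since neither cell type alone gave a domain there, where the input floor was stricter. Chr5:50449601-50450600, 1493 kb from its neighbour, held 30 and 78 reads and had a domain in CD8 alone but none in CD4 alone. These first 2 are weak signals.

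The third, chr13:16103601-16104600, was a strong domain 1172 kb from any other, with 409 CD4 and 601 CD8 reads over 3 and 0 input reads. Chr4:93001201-93002600 held 209 and 377 reads at 1141 kb, and chr2:135484201-135486000 held 231 and 474 reads at 1014 kb. Each of these last 3 was called in both cell types, and none of the 5 was called different between them with median centring. With total-read scaling the domain at chr5:50449601-50450600 was called, at 2.30 toward CD8 (1.49 to 3.63).

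Few members lay near each other. Within 100 kb of another member were 53 (12.4%), and the counted stretches of 28 members (6.56%) overlapped, so that their side reads are shared. The most crowded 1 Mb held 8 members on chromosome 13, all within 168.8 kb at chr13:23608801-23777600, among 15 H3K4me3 domains of any width. Mouse chromosome 13 is known to carry the largest cluster of genes for replication-dependent histones, short genes without introns. Whether these members lie in it was not tested, as no mm9 annotation was used.

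All 8 members of this stretch had CD4 to CD8 folds above 1, and 7 were called higher in CD4 with median centring and 4 with total-read scaling. At chr13:23608801-23611000 there were 201 CD4 and 39 CD8 reads (ratio 8.48, interval 5.99 to 12.3). At chr13:23622001-23623800 there were 525 and 162 reads (ratio 5.33, interval 4.46 to 6.40). Chr13:23646801-23648400 held 598 and 299 reads (ratio 3.29, interval 2.86 to 3.79).

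At chr13:23775601-23777600 there were 449 CD4 and 243 CD8 reads (ratio 3.04, interval 2.60 to 3.57). Chr13:23662801-23664000 held 176 and 109 reads (ratio 2.66, interval 2.08 to 3.41). Chr13:23653801-23655200 held 178 and 124 reads (ratio 2.36, interval 1.87 to 2.995). At chr13:23634801-23636800 the counts were 421 and 342, a 2.03-fold difference (1.75 to 2.34), and at chr13:23625601-23627800 they were 163 and 173, a fold of 1.55 (1.24 to 1.93) and no call.

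Both other domains of the width class in the stretch were also called higher in CD4, by 3.03-fold and 4.51-fold. Side reads are shared among 7 of the 8 members, so their H3K36me3 values are not separate measurements. Without these 8, 70 of 419 members (16.7%) were higher in CD4, over the same background of 9.83%.

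Domains on either side of the H3K36me3 limit held overlapping ranges of H3K4me3. Just inside, with the higher side at 0.6996, 0.699 and 0.699 times input, were chr16:57606401-57607600 with 445 CD4 and 987 CD8 H3K4me3 reads, chr7:108652401-108653400 with 93 and 123, and chr5:92803801-92805000 with 522 and 569. Just outside, at 0.701, 0.701 and 0.702, were chr18:75854801-75857600 with 445 and 697 reads, chr2:16277201-16279000 with 436 and 1074, and chr18:79305801-79307200 with 53 and 141. The limit cuts through a continuous range of values. A member's side held a median of 57 pooled H3K36me3 reads before it and 55 after it.

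At the other end, the 3 members with the lowest H3K36me3 had sides at 0.199, 0.239 and 0.239 times input. The first, chr16:58408201-58409200, had 21 CD4 and 31 CD8 H3K36me3 reads over 40 kb, and held only 29 and 51 H3K4me3 reads. Chr6:116623401-116624400 held 148 CD4 and 239 CD8 H3K4me3 reads. At chr5:51943201-51944400 H3K4me3 was strong in both libraries, with 850 CD4 and 400 CD8 reads, and 3.50-fold higher in CD4 (3.10 to 3.95), while its sides held 26 CD4 and 30 CD8 H3K36me3 reads. It lay 300.4 kb from any other H3K4me3 domain and 595.6 kb from the nearest H3K36me3-enriched window. H3K4me3 of this domain was thus high and different between the libraries with side H3K36me3 below the level of chromatin away from both marks.

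Members were found on each of chromosomes 1 to 19, from 9 on chromosome 17 to 32 on chromosome 13. As a share of the domains of this width they made up 1.87% on chromosome 17 (0.857 to 3.51), the lowest, and 8.27% on chromosome 13 (5.72 to 11.5), the highest, against 4.63% over all. The 8 members of the crowded stretch are among the 32 of chromosome 13. Chromosome 3 had 30 members (6.77%) and chromosome 11, with the most domains, 28 of 797 (3.51%).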

How the data were processed

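Positions of single aligned reads were taken as deposited: per the files, each line gives chromosome, start and end, every read is 33 bp wide, and no other unit is present. The submitters' processing notes name mm9 as build. Which aligner was used, and whether the authors removed duplicate or multiply matched reads, is not given in the sources used here. A read was counted where its midpoint lay, totals were taken over chromosomes 1 to 19, and coordinates are printed 1-based. The members, comparisons and lists were chosen with earlier results of these data known. Regions were named by rule: the 8 highest, 5 higher in each cell type by interval bound, 5 most isolated, the most crowded 1 Mb, 3 on each side of the limit and the 3 lowest; the 7 with different H3K36me3, and the classes of level and of input, were chosen after values were seen. Gene lists were not applied and sequences are not shown, as no mm9 reference was used.

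The domain finder and the call were tested on simulated data. Log2 ratios had 0.5 reads added, and folds had none. Python 3.11.15, NumPy 2.4.6, SciPy 1.17.1, pandas 2.3.3 and matplotlib 3.10.9 were used.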

Additional observations from a re-analysis of the deposited data

Results flagged for a closer look

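Reads on chromosome X were outside the rule. With the totals of chromosomes 1 to 19, 12 of 279 H3K4me3 domains of 1000 to 2800 bp on chromosome X passed it (4.30%, exact 95% interval 2.24 to 7.39). The share on chromosomes 1 to 19, 4.63%, lies within that interval. Their median was 373 pooled H3K4me3 reads per kb, from 167 to 760, and 3 were called higher in CD4 and 0 higher in CD8. The share called over all 279 domains was not computed, and the ratios were centred on chromosomes 1 to 19. These calls are therefore not read as a lean of chromosome X toward either library.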

How the results depend on the processing

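With bins at 8 times input there were 238 members, their level was 0.478 times that of other domains and 93.3% had a domain in each cell type. With the H3K36me3 limit at 0.5 there were 150 members, with a level ratio of 0.333, a median width of 1000 bp, another domain within 20 kb for 14.7%, a domain in each cell type for 82.0% and H3K36me3 at 0.374 times input from 20 to 50 kb. With the limit at 1 there were 1067, and the same values were 0.465, 31.8%, 90.6% and 0.758 (width held). Sides of 10 kb gave a level ratio of 0.424, 30.3% and 0.625, and sides of 50 kb gave 19.5% and 0.417. With 1 read per position the level ratio was 0.470 and 77.0% had a domain in each cell type. The CD4 libraries alone gave 223 members.

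Higher in CD4 were 45 members with total-read scaling, 42 with 1 read per position, 42 at a fold of 3 and 27 of the 200 members with at least 400 reads per kb. Higher in CD8 were 84 with total-read scaling, 7 at a fold of 3, 42 when centred within classes of reads per kb and 4 of those 200. At a fold of 3, 9.84% of members and 4.71% of all domains were higher in CD4, and 1.64% and 0.922% higher in CD8. At 400 reads per kb or more, 13.5% of members and 6.18% of all domains were higher in CD4, and 2% and 1.54% higher in CD8. The centring by class, the set of 200 and the set without the crowded stretch were chosen after seeing the data. The other 31 values moved less than their error or, for counts, less than 1.5 times. The 10 regions named for a difference kept direction and a fold of at least 2 in all 60 recomputations. Since these 10 were picked for large differences in the same counts, that outcome was largely set in advance. A similar count did not mean the same domains: of the 427 members 293 (68.6%) were overlapped with sides of 10 kb, which gave 433, 264 (61.8%) with sides of 50 kb, which gave 390, and 338 (79.2%) with 1 read per position, which gave 612. No paired analysis was possible because each group has 1 library. Weak domains with few input reads limit the precision.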
